A study of Mus musculus with 12 samples.

Results

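A set of 8 members of the collagen family that do not form the large cross-striated fibrils were followed in the left ventricle of the mouse: Col8a1 and Col8a2, which encode the short-chain type VIII collagen, Col6a1, Col6a2 and Col6a3, which encode the beaded type VI collagen, and Col12a1, Col14a1 and Col16a1, which encode collagens associated with fibrils. They were chosen by symbol, and all 8 had at least 1 probe set, out of 18193 genes with a probe set of a single symbol. Together they had 16 probe sets, of which 12 passed the filter on dim signals (a log2 value above 4 on at least 3 of 12 arrays). For each gene the brightest probe set on average over the 12 arrays was used, and the other ones served as a check. All 8 entered the test of 10435 genes, but Col8a2 did so through only 3 arrays above the limit, 2 of them from AB mice.

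The ventricles came from male C57BL/6 mice, in 4 groups of 3 with 1 array per mouse and no genetic change named in the labels. AB mice had a band placed on the aorta at 7 weeks of age and were killed 4 weeks later, and sAB mice had a sham operation in its place. DB3 mice were banded in the same way, had the band taken off after 4 weeks and were killed 3 days after that debanding operation. The labels describe sDB3 as a sham procedure with a later debanding, the control of DB3. The band loads the whole ventricle, and the tissue was the left ventricle, parted from the right ventricle and the atria, so each value mixes cardiomyocytes, fibroblasts, vessel cells and other cells. In such bulk samples, fewer cells of a type and less RNA per cell cannot be told apart.

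Type VIII collagen is a short-chain collagen that assembles into lattices, and it is made by endothelial, smooth muscle and other mesenchymal cells in growing or injured vessels and heart. The alpha chains of type VI collagen join into a monomer that polymerises into beaded microfilaments around cells and next to basement membranes, and faults in these chains cause muscular dystrophies in people. Types XII, XIV and XVI belong to the fibril-associated collagens with interrupted triple helices, which sit on the surface of collagen fibrils or link them to other matrix and are not fibrils themselves.

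The ventricular markers Myl2 and Myh6 lay at the top of the log2 scale on every array (15.62 to 15.80 and 16.35 to 16.61). Genes of other tissue pieces were uneven between mice. Myl7, the atrial light chain, ran from 4.67 to 12.97 over the 12 arrays, and Bmp10, another atrial gene, was at the array's floor on all of them. The spiked bacterial control BioC, which carries no mouse RNA, had mean log2 signals of 10.15 to 10.51 on the sAB arrays and 8.28 to 8.60 on the other 9, so array batch and group cannot be told apart where sAB is used. For that reason AB was also set against sDB3. For Actb, whose 3' minus 5' log2 signal reflects RNA integrity, the AB arrays had 1.02 to 1.13 and the sAB arrays 1.20 to 1.26, with 1.20 to 1.25 in sDB3 and 1.11 to 1.32 in DB3. Their part in the results was not tested.

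The comparison of AB with sAB asks what 4 weeks of pressure load change. Col8a1, Col6a1, Col6a3, Col12a1 and Col16a1 rose, and Col8a2, Col6a2 and Col14a1 did not pass the test. The 5 that rose are 5 of 8 members, against 12% of all genes tested that rose in this comparison by limma at an adjusted p of 0.05 (7.69% fell, and 0 members did, at an unadjusted p under 0.05 as well). The median log2 difference was 0.80 over the members and 0.01 over all genes. In 7 of the 8 members all AB arrays lay above all sAB arrays, against 23.1% of genes. Over all genes the calls split into 1256 higher and 802 lower, and into 1039 and 1173 after median centring or 1106 and 1058 after quantile normalization, and the same 5 members passed under both.

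**Figure D1:**
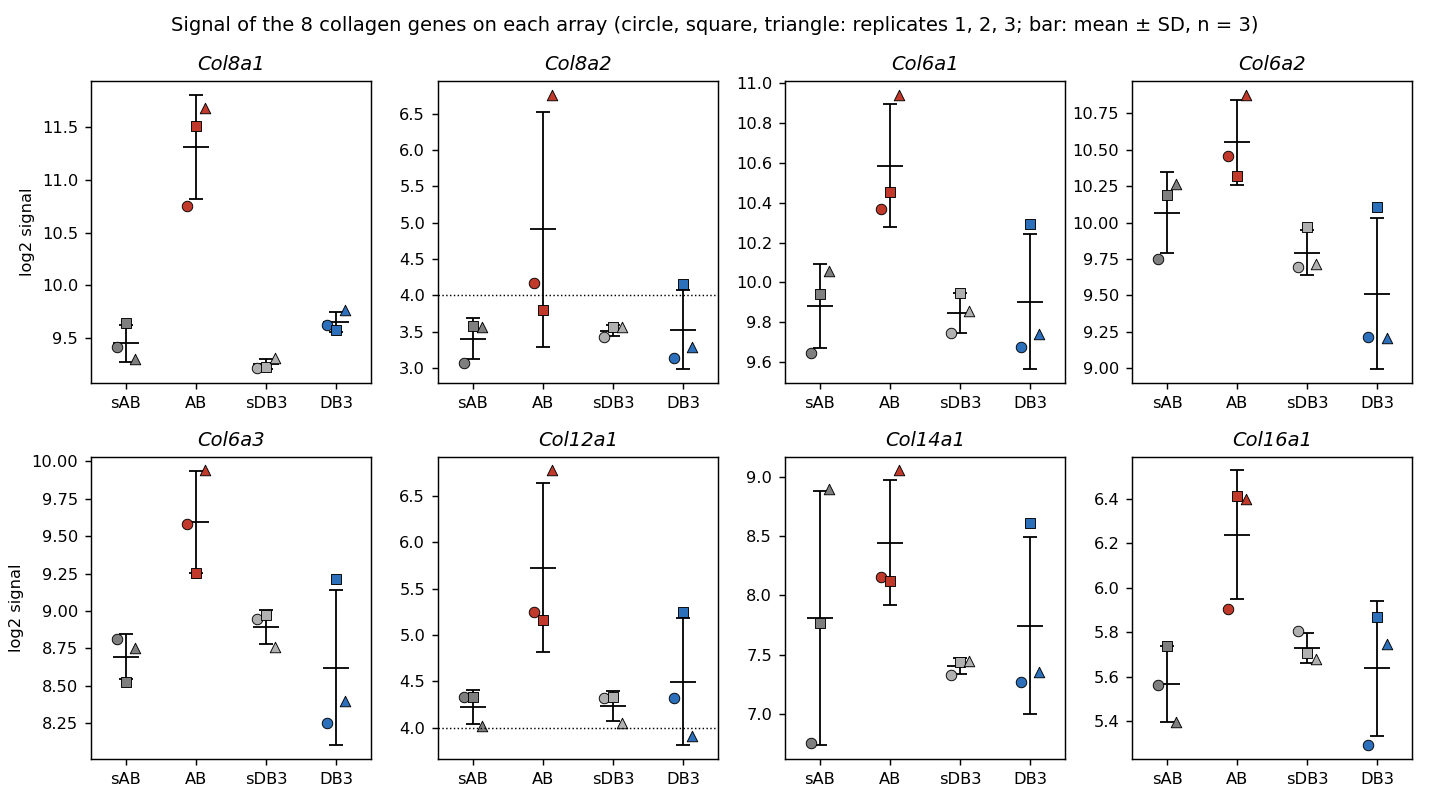
Log2 signal (vertical axis) of the 8 genes on each of the 12 arrays by group, with the mean and SD of 3 arrays as bars. In the panels of Col8a2 and Col12a1 a dotted line marks the filter at log2 4. Col8a1 is high in AB on all 3 arrays, and in DB3 the second array is the highest for all members other than Col8a1.

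Col8a1, the alpha-1 chain of type VIII collagen, rose by the most of the 8 members. Its log2 signals were 9.41, 9.64 and 9.30 in sAB and 10.75, 11.51 and 11.68 in AB. In sDB3 they were 9.22, 9.23 and 9.31, and in DB3 9.62, 9.58 and 9.76. All 3 AB arrays stood above every other array, and the 3 DB3 arrays lay just above the 3 sDB3 arrays. Against sAB the gene was 3.63-fold higher in AB (1.86 ± 0.19 on the log2 scale, with the SE from limma over 3 arrays a group, adjusted p = 0.000226), and it passed in all 23 alternative fits, with adjusted p-values from 1.5e-05 to 0.00767. Its other probe sets rose by 2.38 (1418440_at) and 1.93 (1418441_at) on the log2 scale, both past the test (adjusted p = 0.000278 and 0.00075).

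Col8a2, which encodes the partner chain of type VIII collagen, was dim. Its log2 signals were 3.08, 3.58 and 3.56 in sAB, 4.17, 3.80 and 6.76 in AB, 3.43, 3.56 and 3.56 in sDB3 and 3.14, 4.16 and 3.29 in DB3. A single AB array, replicate 3, carried most of the difference. The mean was 1.50 ± 0.61 log2 units higher in AB than in sAB, with a 95% interval of 0.15 to 2.86 (adjusted p = 0.112), and 0.58 without AB replicate 3 and DB3 replicate 2.

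The 3 chains of type VI collagen had bright probe sets and smaller differences. Col6a1 had log2 signals of 9.65, 9.94 and 10.06 in sAB and 10.37, 10.45 and 10.94 in AB. Its signals were 9.74, 9.95 and 9.86 in sDB3 and 9.68, 10.29 and 9.74 in DB3. AB lay above both shams with no overlap, and 1.63-fold above sAB (log2 0.70 ± 0.19, adjusted p = 0.0251). Col6a3, the long chain that completes the trimer, had 8.81, 8.52 and 8.75 in sAB and 9.58, 9.26 and 9.94 in AB. The sDB3 values were 8.94, 8.97 and 8.76 and the DB3 values 8.25, 9.21 and 8.40. It was 1.86-fold higher in AB than in sAB (0.90 ± 0.23, adjusted p = 0.0222).

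Col6a2, which lies next to Col6a1 on mouse chromosome 10 with 0 protein-coding genes between them in the RefSeq gene table (GRCm38.p6), had 9.75, 10.19 and 10.27 in sAB and 10.46, 10.32 and 10.88 in AB. In sDB3 it had 9.69, 9.97 and 9.72, and in DB3 9.21, 10.11 and 9.21. The AB arrays were above the sAB arrays by a narrow margin, and the difference of 0.48 ± 0.24 did not pass (95% interval -0.05 to 1.02, adjusted p = 0.19). Its second probe set, 1426947_x_at, gave 0.83 and passed (adjusted p = 0.0322). That set's suffix marks probes that may also match other transcripts.

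Among the fibril-associated members, Col12a1, found in dense connective tissue and in tissue under tension, was dim outside AB. It had log2 signals of 4.33, 4.33 and 4.02 in sAB and 5.24, 5.16 and 6.77 in AB. The sDB3 arrays had 4.32, 4.33 and 4.05 and the DB3 arrays 4.32, 5.25 and 3.92. It was 2.83-fold higher in AB than in sAB (log2 1.50 ± 0.41, adjusted p = 0.0283). The other probe set above the floor, 1427391_a_at, stayed between 2.92 and 3.84 on all arrays and gave 0.20 (adjusted p = 0.454), and the last 2 were at the floor, on 12 and on 11 of the 12 arrays.

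Col16a1, whose product is bound by integrins, had 5.56, 5.74 and 5.40 in sAB, 5.90, 6.41 and 6.40 in AB, 5.81, 5.71 and 5.68 in sDB3 and 5.29, 5.87 and 5.75 in DB3. It was 1.59-fold higher in AB than in sAB (0.67 ± 0.17, adjusted p = 0.0194). Col14a1, which sits on the surface of fibrils, had the widest spread among the sAB mice, with 6.76, 7.77 and 8.90, against 8.16, 8.13 and 9.05 in AB. Its sDB3 values were 7.33, 7.44 and 7.45 and its DB3 values 7.27, 8.61 and 7.36. The groups AB and sAB overlapped, and the difference of 0.64 ± 0.50 did not pass (95% interval -0.47 to 1.74, adjusted p = 0.406). The second probe set, 1428455_at, followed the same order of sAB arrays (4.69, 5.19 and 6.23). On sAB replicate 3, the highest, the summed signal of 11 macrophage markers was also the highest of the 12 arrays (log2 13.96, against 12.72 to 13.27 on the other 11), and its part in the spread was not tested.

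**Figure D2:**
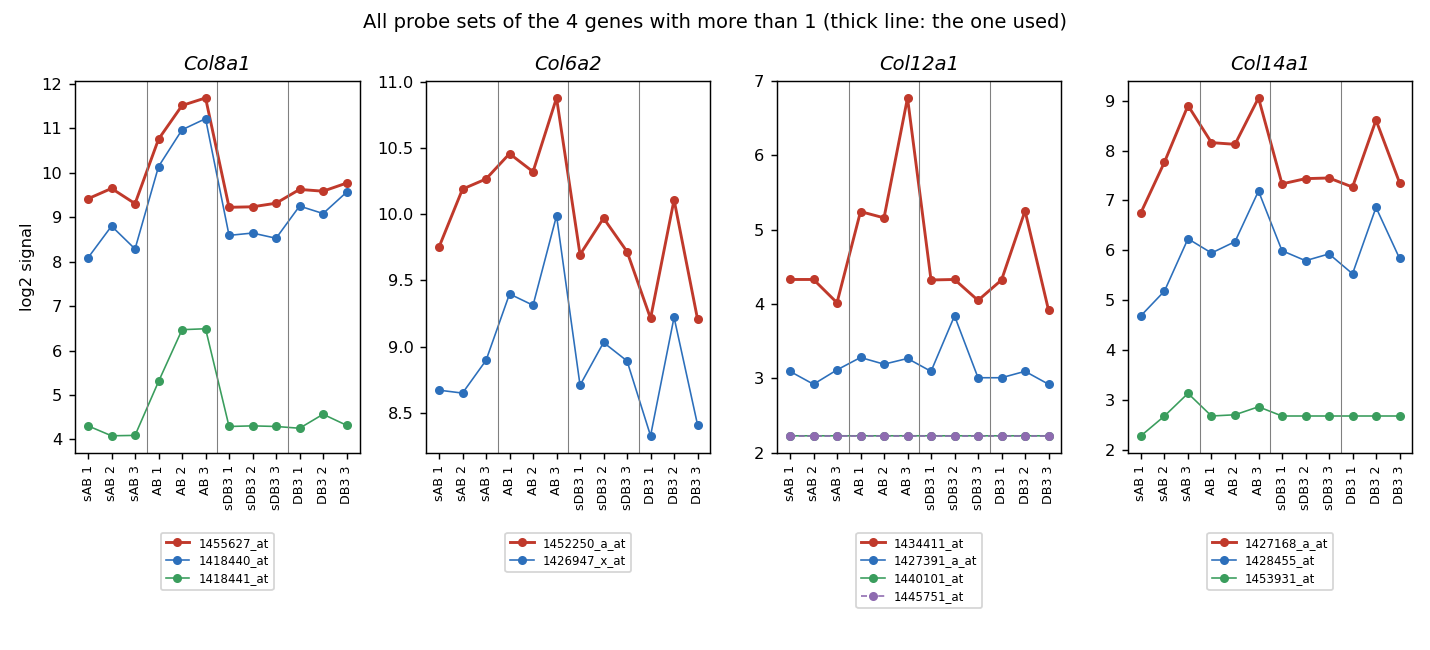
Log2 signal (vertical axis) of every probe set of the 4 members with more than 1, along the 12 arrays. The 3 Col8a1 probe sets are all higher in AB, and of the Col12a1 probe sets the one used is the 1 that passed there.

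Several of these calls were lost when a single array was left out. Without AB replicate 3, Col8a1 alone passed among the members (Col6a1 0.53, adjusted p = 0.0953, Col6a3 0.73, 0.0905, Col12a1 0.98, 0.0722, Col16a1 0.59, 0.0779). Calls were also lost without sAB replicate 1 (Col6a1, Col12a1 and Col16a1), sAB replicate 2 (Col6a1, Col6a3 and Col12a1), sAB replicate 3 (Col12a1 and Col16a1), AB replicate 1 (Col6a3) and AB replicate 2 (Col16a1), with adjusted p-values up to 0.0907. Some of these losses came without a smaller difference, as for Col12a1, at 1.55 without sAB replicate 1 or 2 (1.50 with all arrays). Without a dim filter the differences were the same and more genes were tested, and Col8a1 alone passed (the other 4 had adjusted p-values of 0.0576 to 0.0898).

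The promoters of genes that rose in AB against sAB are shown, other than that of Col12a1, which had no window. Whether these genes share a control was not tested. RefSeq (GRCm38.p6) held promoter windows for 6 of the 8 members. The 250 bases before the start site are given for the 4 risers among them, on the strand of the gene, at chr16:57754738-57754987 (minus strand) for Col8a1, chr10:76726045-76726294 (minus) for Col6a1, chr1:90843972-90844221 (minus) for Col6a3 and chr4:130047590-130047839 (plus) for Col16a1. Capitals mark matches, on either strand, to a TATA box (TATAAA), the CCAAT box, named by its letters, a GC box (GGGCGG), an AP-1 site (TGANTCA) or a SMAD box (CAGAC). No match overlaps another in the 4 windows.
Col8a1: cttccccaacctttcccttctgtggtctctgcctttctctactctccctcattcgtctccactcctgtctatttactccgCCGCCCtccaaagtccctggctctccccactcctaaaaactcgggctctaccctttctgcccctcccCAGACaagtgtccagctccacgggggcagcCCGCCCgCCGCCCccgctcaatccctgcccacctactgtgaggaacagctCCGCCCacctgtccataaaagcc
Col6a1: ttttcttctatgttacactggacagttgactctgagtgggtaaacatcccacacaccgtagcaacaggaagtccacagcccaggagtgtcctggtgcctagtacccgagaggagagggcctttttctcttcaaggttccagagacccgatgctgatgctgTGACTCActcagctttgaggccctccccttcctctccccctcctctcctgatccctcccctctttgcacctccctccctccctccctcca
Col6a3: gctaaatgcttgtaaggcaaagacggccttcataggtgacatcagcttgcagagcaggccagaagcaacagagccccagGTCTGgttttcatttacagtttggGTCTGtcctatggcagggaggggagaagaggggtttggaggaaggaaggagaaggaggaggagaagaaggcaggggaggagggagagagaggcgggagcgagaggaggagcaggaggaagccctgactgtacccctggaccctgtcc
Col16a1: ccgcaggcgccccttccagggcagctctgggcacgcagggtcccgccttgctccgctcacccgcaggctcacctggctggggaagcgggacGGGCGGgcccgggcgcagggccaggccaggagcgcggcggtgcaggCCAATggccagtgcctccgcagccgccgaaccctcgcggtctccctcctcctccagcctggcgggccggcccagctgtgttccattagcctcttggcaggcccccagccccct
No motif was shared by all 4 windows. Col8a1 held 4 GC boxes, starting at -170, -73, -66 and -23 from the start site, and 1 SMAD box at -103. The Col8a2 window, not printed, also held 4 GC boxes. A GC box occurs in 32.7% of all 32851 promoter windows of this length and a SMAD box in 42.2%. Col6a1 held 1 AP-1 site, at -90, a motif of 6.75% of windows, and no GC box. Col6a3 held 2 SMAD boxes, at -171 and -147, and Col16a1 1 CCAAT box, at -113 (33.8% of windows), and 1 GC box, at -159. The TATA motif (12.4% of windows) was in none of the 4. A match is a run of letters and not a tested site.

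The other comparison of AB, with sDB3, uses the sham whose BioC signals lay in the same range as those of AB, with the AB arrays shared between both comparisons. It is not the same question, since the labels give sDB3 a later debanding procedure and 3 days after it, which AB mice did not have. The band, that procedure and the added days cannot be told apart here. Of the members 4 rose. Col8a1 was 4.17-fold higher (log2 2.06 ± 0.19, adjusted p = 0.000297), Col12a1 2.81-fold (1.49 ± 0.41, 0.0282), Col6a1 1.67-fold (0.74 ± 0.19, 0.0203) and Col6a2 1.69-fold (0.76 ± 0.24, 0.0474). These 4 of 8 members compare with 17.3% of all genes that were higher in this comparison. All AB arrays lay above all sDB3 arrays for 8 of the 8 members, against 32.5% of genes. Col6a3 (0.70 ± 0.23, adjusted p = 0.0549) and Col16a1 (0.51 ± 0.17, 0.054) missed the threshold narrowly, Col8a2 was at 1.39 ± 0.61 (0.127) and Col14a1 at 1.04 ± 0.50 (0.161). The split over all genes was 1809 higher and 489 lower, 810 and 1223 after median centring and 919 and 727 after quantile normalization. Median centring takes 0.14 log2 units from this comparison, and with it the call of Col6a2 was lost (0.62, adjusted p = 0.0879), as it was with quantile normalization (0.70, 0.075). Without AB replicate 3, Col8a1 alone passed, and leaving out single sDB3 arrays ended the calls of Col12a1 (each of the 3), Col6a2 (each of the 3) and Col6a1 (replicate 1). Col6a2 was also lost without AB replicate 1, AB replicate 2, sAB replicate 2 or sAB replicate 3 (adjusted p 0.0543 to 0.0783), and its highest adjusted p, 0.166, was without AB replicate 3. With probe set 1427391_a_at Col12a1 differed by -0.07 (adjusted p = 0.809). Without DB3 replicate 2, Col6a3 passed (adjusted p = 0.0142).

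The 2 shams were also compared with each other. Of the 8 members 0 passed in sDB3 against sAB (0 at an unadjusted p under 0.05 in limma and 0 in the unmoderated model), while 17.8% of all genes did. The member differences ran from -0.40 (Col14a1, 95% interval -1.51 to 0.70) to 0.20 (Col6a3, -0.32 to 0.72), and that of Col8a1 was -0.20 (-0.63 to 0.23), while its probe sets 1418440_at and 1418441_at gave 0.20 and 0.14. The interval of Col6a1 was -0.45 to 0.38 and that of Col6a2 -0.81 to 0.26. The part of the second operation, the added days and the array batch in these values was not tested.

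**Figure D3:**
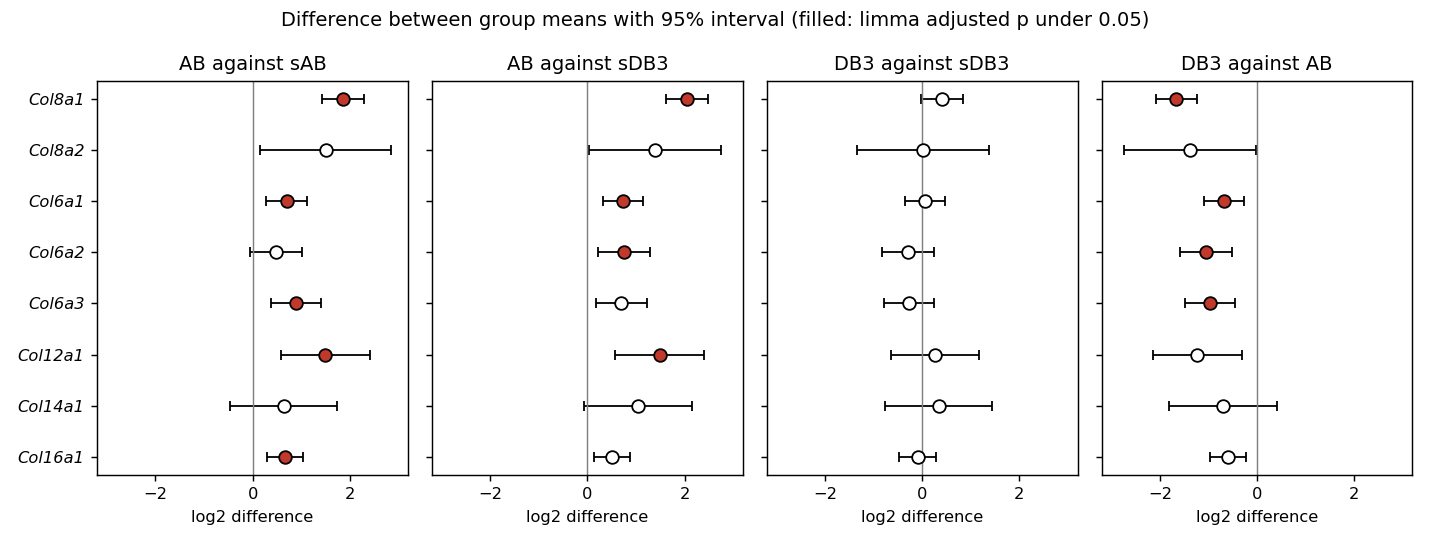
Log2 difference between group means (horizontal axis) with its 95% interval for the 8 members in 4 comparisons, filled where the limma adjusted p was under 0.05. AB passed for 5 members against sAB and 4 against sDB3, DB3 for 0 against sDB3, and DB3 was lower than AB for 4.

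DB3 against sDB3 asks what was left 3 days after the band came off. Of the 8 members 0 passed, at the adjusted threshold or at an unadjusted p under 0.05, in limma and in the unmoderated model alike, where 5.37% of all genes were higher and 0.997% lower. Col8a1 was the nearest, 1.32-fold higher (log2 0.40 ± 0.19, 95% interval -0.03 to 0.83, adjusted p = 0.224). It was the 1 member whose DB3 arrays all lay above the sDB3 arrays, which 22.4% of genes did. Its probe set 1418440_at gave 0.71 (adjusted p = 0.121) and 1418441_at 0.08 (0.867). Col6a2 (-0.28, interval -0.82 to 0.25) and Col6a3 (-0.27, interval -0.79 to 0.25) had DB3 means below sDB3, and Col6a1 was at 0.06 (-0.36 to 0.47), which turned to -0.07 after median centring. Col12a1 (0.26), Col14a1 (0.34), Col16a1 (-0.09) and Col8a2 (0.01, -0.11 after median centring) had intervals across 0. Over all genes the split was 560 higher and 104 lower, 137 and 331 after median centring, which takes 0.12 from this comparison, and 107 and 92 after quantile normalization.

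DB3 replicate 2 was the highest of its 3 arrays for 7 of the 8 members, as it was for 30.4% of all genes. Its signal exceeded the mean of the other 2 DB3 arrays by 1.30 for Col14a1, 1.13 for Col12a1, 0.90 for Col6a2, 0.89 for Col6a3 and 0.59 for Col6a1, where the median of all genes was 0.00 (-0.0019). Col8a1 was the exception, at -0.11. In the same way AB replicate 3 was the highest of the AB arrays for 7 of 8 members (36.7% of genes), by 2.78 for Col8a2, 1.57 for Col12a1 and 0.91 for Col14a1. Without DB3 replicate 2, the differences of DB3 from sDB3 turned negative for Col12a1 (-0.11), Col14a1 (-0.09), Col6a1 (-0.14) and Col8a2 (-0.30), and none passed.

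Markers of dense connective tissue and of the atrium were in part high on both arrays. DB3 replicate 2 was the highest DB3 array for 5 of the 5 valve and cartilage-like and 3 of the 5 atrial markers tested, and AB replicate 3 the highest AB array for 3 and 5 of them. Of 7 valve and cartilage-like markers 5 were tested, and their summed log2 signal was 10.89 on DB3 replicate 2 and 8.50 and 8.64 on the other DB3 arrays, and 11.79 on AB replicate 3 against 10.00 and 9.37. In sAB it ran from 8.99 to 10.32 and in sDB3 from 8.55 to 9.80. Fmod, the proteoglycan fibromodulin, had 7.03, 9.92 and 6.96 in DB3 and 9.20, 7.92 and 10.88 in AB, and Comp, cartilage oligomeric matrix protein, 7.43, 9.29 and 7.75 in DB3 and 8.51, 8.16 and 10.56 in AB. Sox9 (5.10, 6.47 and 6.00) and Scx (4.44, 4.98 and 4.44) were highest on AB replicate 2 among the AB arrays. Acan, a defining cartilage gene, was at most 2.49. The atrial light chain Myl7 had 9.45, 12.72 and 4.67 in DB3, 11.62, 9.41 and 11.94 in AB, 12.41, 12.97 and 10.11 in sDB3 and 9.28, 6.96 and 9.32 in sAB. The summed signal of the 5 atrial markers tested, which include the overload gene Nppa, was 12.86 to 13.00 in sAB, 15.17 to 15.51 in AB, 13.44 to 14.60 in sDB3 and 13.74 to 14.91 in DB3. The smooth muscle gene Myh11 had 9.67 on DB3 replicate 2 and 7.99 and 8.29 on the others. Of the 12 smooth muscle and pericyte markers tested, 5 had DB3 replicate 2 as the highest DB3 array. The summed log2 signal of these 12 was 15.53, 15.53 and 15.51 on DB3 replicates 1, 2 and 3. The part of such tissue in the members' values was not tested. An alternative chosen after seeing the data left out both AB replicate 3 and DB3 replicate 2. Col8a1 (1.68), Col6a1 (0.53), Col6a3 (0.73) and Col12a1 (0.98) then passed in AB against sAB, with limma adjusted p-values of 0.00238, 0.03, 0.0117 and 0.0072. Col16a1 lost its call (0.59, adjusted p = 0.0754). DB3 replicate 2 is in neither group of this comparison, so leaving it out changes the spread in the fit and not the differences. Those are the same without AB replicate 3 alone, where Col8a1 alone passed.

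**Figure D4:**
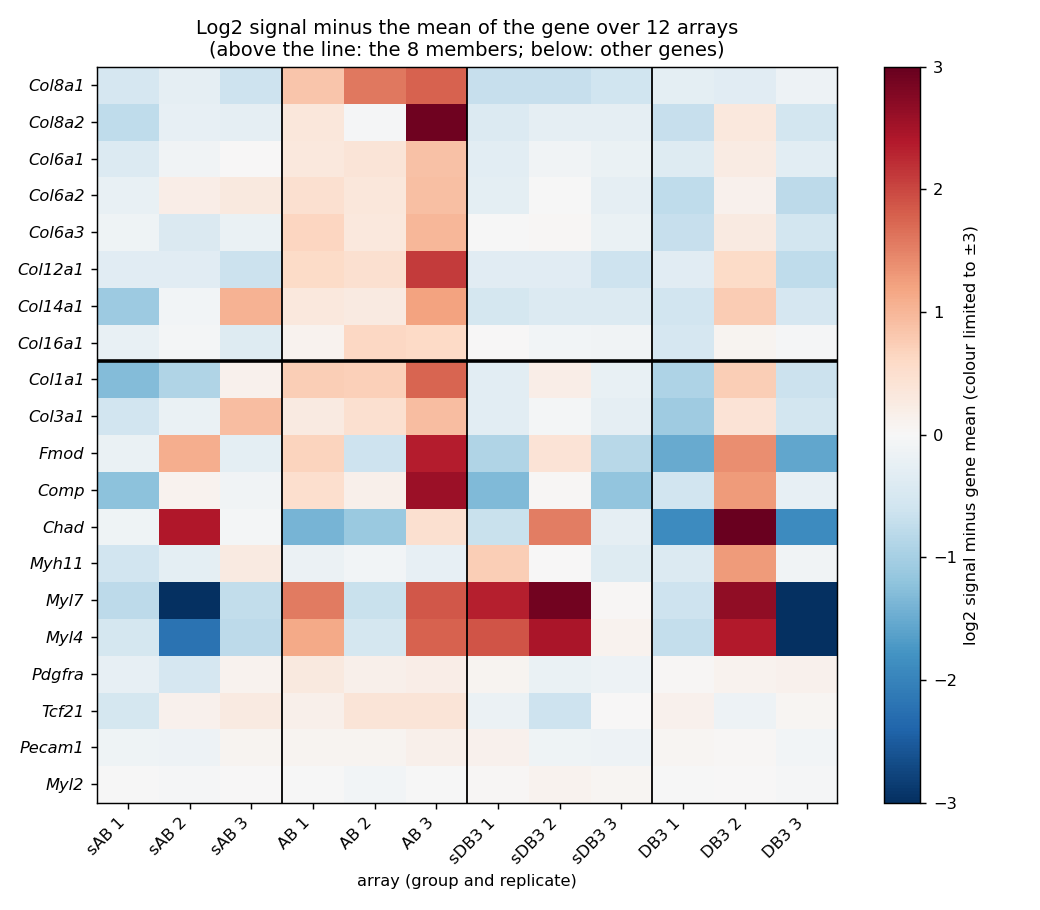
Log2 signal minus each gene's mean over the 12 arrays, as colour, for the 8 members (above the thick line) and for fibrillar collagens, connective tissue, smooth muscle, atrial, fibroblast, endothelial and ventricular genes (below). AB replicate 3 and DB3 replicate 2 are high in most members and also in Fmod, Comp, Myl7 and Myl4, while Col8a1 follows the AB group. Myl7 and Myl4 are also high on sDB3 replicates 1 and 2, where the members lie near or below their own means.

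Fibroblasts are a main source of fibrillar and type VI collagen. Of 11 measured fibroblast markers 2 rose and 1 fell in AB against sAB, with a median log2 difference of 0.01, equal to the median of all genes, and their summed log2 signal was 14.97 to 15.21 in sAB, 14.96 to 15.02 in AB, 14.92 to 14.98 in sDB3 and 15.13 to 15.25 in DB3. Lamp5 was near the floor (at most 2.27). Of 12 endothelial markers 3 rose and 0 fell (6 and 0 at an unadjusted p under 0.05), with summed signals of 13.13 to 13.20 in sAB, 13.29 to 13.36 in AB, 13.03 to 13.10 in sDB3 and 13.05 to 13.22 in DB3. The list for smooth muscle and pericytes held 12 markers, of which 5 rose and 1 fell, and its sums were 15.25 to 15.28 in sAB, 15.41 to 15.54 in AB, 15.29 to 15.44 in sDB3 and 15.51 to 15.53 in DB3. Against sDB3, 3 fibroblast markers were higher in AB and 1 lower by limma, with a median of 0.30 against 0.11 for all genes. In that comparison 6 endothelial markers were higher and 0 lower, and 4 smooth muscle and pericyte markers higher and 1 lower. The part of these cells in the members' values was not tested.

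DB3 against AB sets debanded against still banded hearts and shares its arrays with the comparisons above. Col8a1, Col6a1, Col6a2 and Col6a3 fell in DB3. Col8a1 fell by 1.66 log2 units (SE 0.19, limma adjusted p = 0.00144), and its mean in AB was 3.15 times that in DB3. The type VI chains fell by 1.04 ± 0.24 (Col6a2, 0.0247), 0.97 ± 0.23 (Col6a3, 0.0285) and 0.68 ± 0.19 (Col6a1, 0.0479). These are 4 of 8 members, against 5.12% of all genes lower in this comparison. For 5 of 8 members all DB3 arrays lay below all AB arrays, against 17.6% of genes. Col16a1 (-0.60 ± 0.17, adjusted p = 0.0507), Col12a1 (-1.23 ± 0.41, 0.0925), Col8a2 (-1.38 ± 0.61, 0.196) and Col14a1 (-0.70 ± 0.50, 0.428) did not pass. The calls of Col6a2 and Col6a3 were lost without AB replicate 3, DB3 replicate 1 or DB3 replicate 3, that of Col6a3 also without AB replicate 1, and that of Col6a1 in 9 of 12 fits without 1 array, with adjusted p-values up to 0.169. Without DB3 replicate 2 both Col12a1 (-1.60, adjusted p = 0.0434) and Col16a1 (-0.72, 0.0436) passed.

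Whether the effect of loading differed between the banded and the debanded stage was tested as the DB3 effect minus the AB effect. Col8a1 was the 1 of 8 members that passed, against 2.59% of all genes with a lower effect after debanding (log2 -1.46 ± 0.28, 95% interval -2.07 to -0.85, adjusted p = 0.0193). Col6a3 (-1.17 ± 0.33, adjusted p = 0.0637), Col16a1 (-0.76 ± 0.24, 0.0852), Col6a1 (-0.65 ± 0.27, 0.169), Col6a2 (-0.77 ± 0.34, 0.202) and Col12a1 (-1.24 ± 0.59, 0.225) had differences in the same direction that did not pass. So did the dim Col8a2, with an estimate as large as that of Col8a1 but a wider SE (-1.49 ± 0.87, 0.323), and Col14a1 (-0.30 ± 0.71, 0.838). Col6a3 passed without DB3 replicate 2 (-1.47, adjusted p = 0.0173) and Col16a1 without AB replicate 1 (-0.93, 0.0402). The split over all genes was 360 higher and 270 lower, 171 and 394 after median centring and 228 and 343 after quantile normalization.

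The nearest profiles over the 12 arrays were taken as the genes with the smallest root mean square (RMS) difference after each gene was centred on its own mean. For Col8a1 these were Tgfb2, a transforming growth factor (RMS difference 0.22 log2 units), the water channel Aqp8 (0.26) and Nlrc3 (0.29). Tgfb2 differed by 2.14 ± 0.20 in AB against sAB (adjusted p = 0.000112) and by 0.44 ± 0.20 in DB3 against sDB3 (0.2). The genes nearest to Col6a1 were Rcn3 (0.14), Sparc, a collagen-binding matricellular protein (0.14), and Olfml3 (0.14), and those nearest to Col6a2 were Col5a1 (0.18), Lum, the proteoglycan lumican (0.20), and Sparc (0.20). Col6a3 had Eln, elastin (0.21), Col6a1 (0.22) and Ramp3 (0.25). Col12a1 had Ptn (0.27), Pdgfrl (0.28) and the Wnt inhibitor Frzb (0.28), and Col8a2 had Ptn (0.37), Col12a1 (0.38) and Tmem119 (0.46). Col14a1 was nearest to Fn1, fibronectin (0.21), the collagen-degrading protease Ctsk (0.27) and Col3a1 (0.28), and Col16a1 to Cnn2 (0.15), Mcam (0.15) and Farp1 (0.16).

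Of 12 other chains of the same 3 classes, such as Col10a1 and the type IX chains, 9 had probe sets and 0 were above the filter on any array, with 3.61 as the highest value. Of 7 fibrillar collagens tested 1, Col1a1, rose in AB against sAB (4 at an unadjusted p under 0.05) and the list had a median of 0.51, and of 7 basement membrane and multiplexin collagens 5 rose, with a median of 0.82. Among the latter Col15a1 was higher by 1.70 ± 0.15, Col4a3 by 1.37 and Col4a4 by 0.95. In DB3 against sDB3 0 of the 7 and 0 of the 7 passed by limma (2 fibrillar genes lower and 0 of the others at an unadjusted p under 0.05), with medians of -0.17 and 0.00 (-0.0023). In the difference of effects 1 fibrillar and 4 basement membrane and multiplexin collagens were lower by limma, and 0 higher. DB3 was lower than AB for 2 fibrillar collagens and for 6 of the others.

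**Figure D5:**
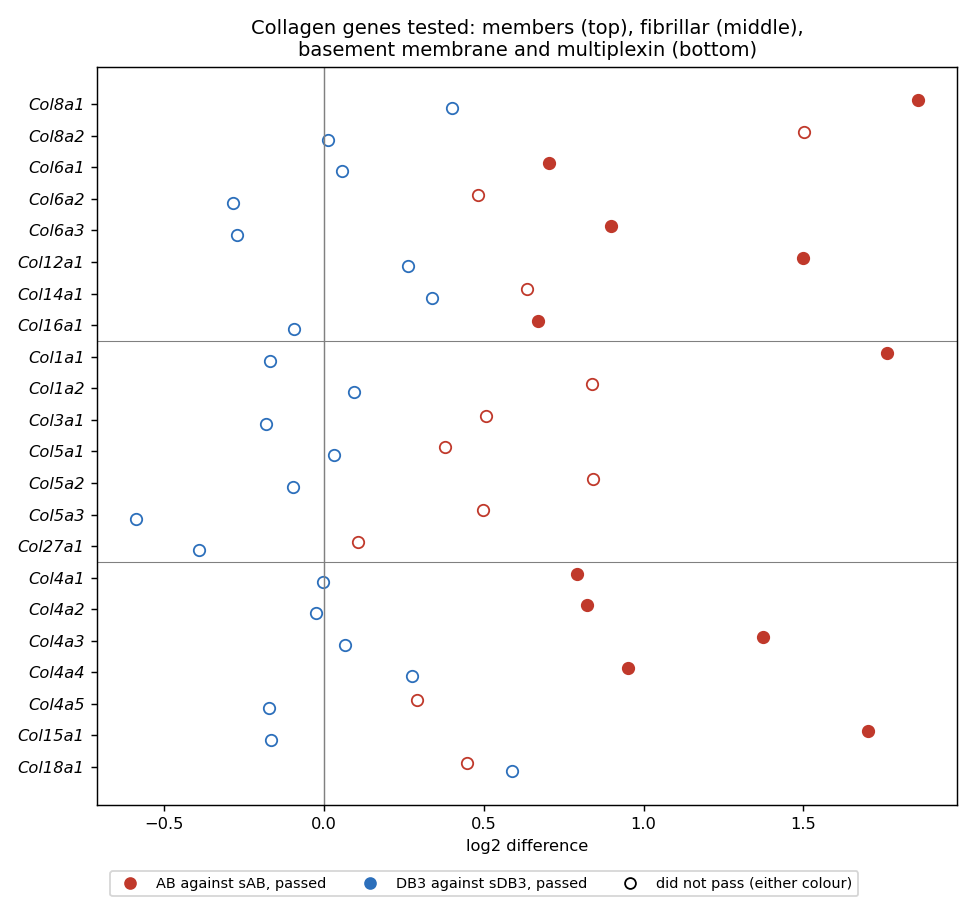
Log2 difference (horizontal axis) of the 22 collagen genes tested, in AB against sAB (red) and DB3 against sDB3 (blue), filled where the adjusted p was under 0.05. All 22 red points lie to the right of 0, and no blue point is filled.

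Of 19 genes of collagen folding, hydroxylation and crosslinking 7 rose and 0 fell in AB against sAB (median 0.24), led by the prolyl 3-hydroxylases P3h2 (1.13 ± 0.10) and P3h3 (1.02) and the lysyl oxidase relative Loxl1 (1.04). In DB3 against sDB3 P3h2 was the 1 that was higher (0.56 ± 0.10, adjusted p = 0.0171). Of 4 procollagen proteases and enhancers Pcolce2 was higher in both comparisons (0.39, adjusted p = 0.0414, and 0.45, 0.0498). Between the shams it was lower in sDB3 than in sAB (-0.53, limma adjusted p = 0.0155), and it was lower in DB3 than in AB (-0.47, 0.0355). Of 9 collagen receptors 3 rose and 2 fell in AB against sAB (median 0.03). Mrc2, which takes up collagen fragments, rose by 1.14 ± 0.15, and Cspg4, a pericyte proteoglycan that binds type VI collagen, by 1.07 ± 0.13, while the inhibitory receptor Lair1 fell by 0.45. The type VI collagen receptor Antxr2 was the other that fell, by 0.42 (adjusted p = 0.0159), and Ddr1 the other that rose (0.25, 0.018), both named after their values were seen. Against sDB3, 6 of the 9 receptors were higher in AB and 1 lower by limma. Lair1 was at 0.12 there (adjusted p = 0.548), and it was lower in sDB3 than in sAB (-0.57, 0.0156). In DB3 against sDB3 0 of the 9 passed by limma (1 higher at an unadjusted p under 0.05).

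Of 12 partners of the type VI, XII and XIV collagens 4 rose and 0 fell in AB against sAB (median 0.67), among them periostin, Postn (1.91 ± 0.34), fibulin-2, Fbln2 (1.04), and biglycan, Bgn (1.04), which links type VI filaments to other matrix. In DB3 against sDB3 2 were higher, Tgfbi, a collagen-binding adhesion protein (0.998 ± 0.181, adjusted p = 0.0204), and decorin, Dcn (0.41 ± 0.11, 0.0493). In AB against sAB Tgfbi was at 0.34 (adjusted p = 0.216) and Dcn at 0.06 (0.716). Of 14 TGF-beta genes 6 rose and 0 fell in AB against sAB (8 higher and 2 lower at an unadjusted p under 0.05 in limma, median 0.43). Ltbp2 was at 2.37 ± 0.34, Tgfb2 at 2.14 and Ccn2 at 2.13. In DB3 against sDB3 1 was higher, Ltbp4 (0.30 ± 0.07, adjusted p = 0.0392). In a fit of DB3 and sDB3 alone 0 genes passed by limma (2137 at an unadjusted p under 0.05), so the calls of Tgfbi, Dcn, Ltbp4, P3h2 and Pcolce2 in that comparison were lost there.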

How the data were processed

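Biotin-labelled RNA of 12 left ventricles was hybridised to Affymetrix arrays, per the labels' protocols. The authors' deposited values are log2 signals per probe set, made with GCRMA per the submitters' processing notes, which name no version or setting. Of 45101 probe sets, 34945 carry 1 symbol in the platform annotation, renewed through RefSeq gene IDs. The 932 with several and the 9160 with none were not used, nor were 64 controls.

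The dim filter left 17817 probe sets and 10435 genes. A single model of the 4 groups was fitted with limma 3.58.1 (R 4.3.3, lmFit, eBayes, 8 residual and 2.68 prior degrees of freedom), with two-sided p-values adjusted over all genes by the Benjamini-Hochberg method at 0.05. With 3 arrays a side no exact permutation p can be lower than 0.1, and the number of arrays limits the precision. Litter and day are not in the labels, so p-values measure the spread between these mice. The fit was also run on simulated data, with noise drawn independently for each gene and array and 200 of 10435 genes changed. It recovered 23% to 57% of changes of 0.5 log2 units and 76% to 89% of changes of 1, depending on the comparison. Of its calls, 2.76% to 7.59% were false. Shifts that many genes share on 1 array were not simulated.

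The members, lists and comparisons were chosen with earlier results of these data known. Named genes are the members, up to 3 genes of each related list with the largest change past the threshold in AB against sAB and in DB3 against sDB3, and the 3 nearest profiles of each member. Marker genes named singly (of atrium, ventricle, connective tissue, smooth muscle and fibroblasts) come from the marker lists and were chosen after their values were seen. The macrophage list had 1 of 11 higher in AB against sAB, the valve and cartilage-like list 0 of 5 (1 at an unadjusted p under 0.05 in limma) and the atrial list 2 of 5. Alternatives changed the dim filter, the scaling, the summary over probe sets, the moderation of the variance, the groups in the fit and the arrays left out.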

Additional observations from a re-analysis of the deposited data

Results flagged for a closer look

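The effect on Col8a1 differed between the banded and the debanded stage by a test of the difference itself, at -1.46 log2 units (limma adjusted p = 0.0193), with AB against sAB at 1.86 and DB3 against sDB3 at 0.40. It passed in 19 of 22 alternatives, with adjusted p-values from 0.000785 to 0.0808. It did not pass without a dim filter (0.0518), without AB replicate 2 (0.0521) or without AB replicate 3 and DB3 replicate 2 together (0.0808, -1.24). The sAB arrays carry the different BioC level, and its part in this difference was not tested.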

How the results depend on the processing

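No paired analysis was possible because each array is from a different mouse and no label pairs mice between groups. The labels carry no replicate numbers, and those used here follow the order of the samples within each group. Without a dim filter, members past the threshold numbered 1 in AB against sAB, in AB against sDB3 and in DB3 against AB and 0 in the difference of effects, and genes 338 in that difference and 323 in DB3 against sDB3. With a filter above 6, 5 members were tested (Col8a2, Col12a1 and Col16a1 were not), and 2 passed in the difference and 3 in AB against sAB. In the unmoderated model they were 2 in AB against sAB, 1 in DB3 against AB and 2 in AB against sDB3, and genes 427 in DB3 against sDB3. Quantile normalization gave 199 genes in DB3 against sDB3. Fits of only the groups compared gave 0 genes in DB3 against sDB3 by limma (2137 at an unadjusted p under 0.05), 629 genes and 1 member in DB3 against AB and 571 genes in sDB3 against sAB. Without 1 array at a time, genes ranged from 1139 to 2119 and members from 1 to 5 in AB against sAB, 1124 to 2354 and 1 to 6 in AB against sDB3, 365 to 1031 and 1 to 6 in DB3 against AB, 170 to 535 and 0 to 0 in DB3 against sDB3, 152 to 567 and 0 to 2 in the difference of effects, and 967 to 1945 and 0 to 0 in sDB3 against sAB. Without AB replicate 3 and DB3 replicate 2, an alternative chosen after seeing the data, 1028 genes passed in AB against sAB, 935 in AB against sDB3, 250 in DB3 against AB, 88 in DB3 against sDB3 and 77 in the difference. Of the member results under alternatives, 894 kept their direction and their side of the threshold, 75 lost a call, 19 gained one and 30 changed sign. Of the last, 1 had passed the test as reported, Col12a1 in AB against sDB3. Leaving out 1 array turned the sign of these, given as ranges over the 12 fits. In DB3 against sDB3 they were Col12a1 -0.11 to 0.55, Col14a1 -0.093 to 0.58, Col16a1 -0.21 to 0.079, Col6a1 -0.14 to 0.17 and Col8a2 -0.30 to 0.21. In sDB3 against sAB they were Col12a1 -0.10 to 0.10, Col14a1 -0.93 to 0.14, Col6a1 -0.15 to 0.054 and Col8a2 -0.056 to 0.20. In the difference of effects they were Col14a1 -0.84 to 0.23. Median centring turned Col8a2 to -0.11 in DB3 against sDB3, Col6a1 to -0.066 in DB3 against sDB3 and Col6a1 to 0.053 in sDB3 against sAB. Leaving out AB replicate 3 and DB3 replicate 2 together turned Col8a2 to -0.30 in DB3 against sDB3, Col6a1 to -0.14 in DB3 against sDB3, Col12a1 to -0.11 in DB3 against sDB3 and Col14a1 to -0.093 in DB3 against sDB3. The probe set 1427391_a_at turned Col12a1 to -0.31 in DB3 against sDB3 and Col12a1 to -0.068 in AB against sDB3. The mean over probe sets turned Col8a1 to 0.045 in sDB3 against sAB and Col14a1 to 0.066 in sDB3 against sAB. The probe set 1418440_at turned Col8a1 to 0.20 in sDB3 against sAB. The probe set 1418441_at turned Col8a1 to 0.14 in sDB3 against sAB. The probe set 1426947_x_at turned Col6a2 to 0.14 in sDB3 against sAB. The probe set 1428455_at turned Col14a1 to 0.54 in sDB3 against sAB. The cause was not tested, other than that more or fewer genes were tested under another filter. Dim signals limit Col8a2 and Col12a1.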
